A study of Mus musculus with 313 samples.

Results

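Tcf7, Lef1, Tox and Sox4 were 4 of the 100 assays of a single-cell quantitative RT-PCR panel, and each encodes a transcription factor with an HMG box. The HMG box is a DNA-binding fold that sits in the minor groove and bends the helix. Tcf7 encodes TCF-1 and Lef1 its close relative LEF-1, which bind the same DNA motif, recruit β-catenin or Groucho/TLE co-repressors, and act in early T cells and innate lymphoid cells. Tox encodes an HMG-box protein needed for the development of innate lymphoid cells and CD4 T cells, and Sox4 encodes a SOX-family activator with known roles in early B and T cell development.

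The cells came from pooled mouse fetal livers at embryonic day 15, where every cell passed a gate without lineage markers and with IL-7Rα and integrin α4β7. LTi precursors (LTiP) lacked PLZF and carried CXCR5, ILC precursors (ILCP) carried PLZF, and the α4β7+ lymphoid precursors (aLP) lacked both. Innate lymphoid cells (ILCs) are lymphocytes without rearranged antigen receptors, and lymphoid tissue inducer (LTi) cells start the formation of lymph nodes. PLZF is the protein of Zbtb16. The sources used here give no strain, genotype or number of fetuses. Cell names carry a 2 or a 3, read here as the number of the sort without a label that says so. This gave 5 pools: 14 LTiP cells of sort 3, 62 and 90 ILCP cells of sorts 2 and 3, and 54 and 92 aLP cells of sorts 2 and 3. The pool, not the cell, was the replicate, so that ILCP and aLP had 2 pools each and LTiP had 1.

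Detection meant a Ct below 24, the Ct being the amplification cycle where the fluorescence of an assay passes its threshold. The level was 24 minus the Ct in cycles, and 0 in a cell where the transcript was not detected. Levels are compared between groups for 1 assay at a time, since assays differ in efficiency. The gate genes fitted their labels in part. Zbtb16 was found in 58 of 62 and 87 of 90 ILCP cells (sorts 2 and 3), but also in 11 of 54 and 3 of 92 aLP cells. In LTiP cells, sorted as PLZF-negative, Zbtb16 was detected in 50% and Cxcr5 in 85.7%. The pools also differed in how many of the 100 assays a cell detected, with means of 33.6 in LTiP, 40.7 and 40.8 in ILCP, and 32.2 and 28.2 in aLP cells. The housekeeping assay Tbp gave no Ct in any cell of sort 2 numbered 97 or higher, which were 10 ILCP and all 54 aLP cells, against 30 detecting cells of the 52 ILCP cells numbered 1 to 96. In sort 3 Tbp had a Ct below 24 in 57 of 90 ILCP and 47 of 92 aLP cells. Of 7 B lineage markers 4 were on the panel, with summed levels of 2.38 and 1.88 cycles in ILCP against 5.28 and 5.65 cycles in aLP pools, nearly all of it from Irf8 (2.21 and 1.77 cycles in ILCP, 4.66 and 5.08 cycles in aLP), which is also a myeloid and dendritic marker, and the defining B lineage members Ebf1 and Pax5 were at 0 in all but 1 aLP cell each. The part of these differences in the results was not tested.

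The start-site windows printed here are shown because they held the letters of the motifs searched. Each spans an annotated start on the gene's strand, from RefSeq on GRCm38.p6. In the Tcf7 window (chr11:52282546-52282845, minus strand) capitals mark an ETS core, CCGGAA or its complement TTCCGG. In the Lef1 window (chr3:131156044-131156343, plus strand) capitals mark the TCF/LEF cores CTTTGA and CTTTGT in either orientation.
Tcf7: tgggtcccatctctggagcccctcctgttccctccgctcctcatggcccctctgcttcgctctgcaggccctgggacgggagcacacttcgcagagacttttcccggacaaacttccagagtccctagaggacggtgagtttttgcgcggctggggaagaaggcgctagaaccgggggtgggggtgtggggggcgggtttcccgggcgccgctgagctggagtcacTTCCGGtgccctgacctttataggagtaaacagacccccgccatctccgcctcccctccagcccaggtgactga
Lef1: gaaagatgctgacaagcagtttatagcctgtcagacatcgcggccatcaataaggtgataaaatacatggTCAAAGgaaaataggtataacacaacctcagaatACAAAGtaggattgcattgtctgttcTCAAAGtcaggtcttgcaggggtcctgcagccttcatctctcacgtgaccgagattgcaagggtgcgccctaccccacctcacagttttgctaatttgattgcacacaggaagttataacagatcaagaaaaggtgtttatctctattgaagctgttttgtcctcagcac
There were 7 windows listed for Tcf7, Lef1 and Sox4, some of Lef1 overlapping, and none for Tox. Of the 7, 1 held CCGGAA, 1 held the TCF/LEF cores and the other 5 held none of these letters. On either strand, CCGGAA occurred in 14.9% of 32851 such windows, CTTTGA in 16% and CTTTGT in 18.7%. A match describes letters in the window and is not a binding site.

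Tcf7 was higher in ILCP than in aLP pools of both sorts. Counts of detecting cells were 55 of 62 (88.7%) and 87 of 90 (96.7%) among ILCP in sorts 2 and 3, and 17 of 54 (31.5%) and 16 of 92 (17.4%) among aLP. The mean level was 6.51 and 7.68 cycles in the ILCP pools and 1.92 and 1.02 cycles in the aLP pools. Both ILCP pools were far above both aLP pools, with no overlap. The level averaged 7.09 ± 0.82 cycles in ILCP and 1.47 ± 0.64 cycles in aLP (SD, n = 2 pools each), a difference of 5.62 ± 0.58 cycles (SE; limma, Benjamini-Hochberg adjusted p = 0.0138 over 91 assays). In that comparison 6.59% of the assays tested passed (5.49% higher and 1.1% lower in ILCP), and Tcf7 had the second largest increase. The share of detecting cells was higher in ILCP by 68.3 ± 6.89 percentage points (limma, adjusted p = 0.0263), where 14.3% of assays passed (12.1% higher and 2.2% lower). With the sort as a block neither passed (adjusted p = 0.0611 for the level and 0.0966 for the share), and the level did not pass when either ILCP pool was left out (adjusted p = 0.112 and 0.120).

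Among detecting cells alone, Tcf7 had lower means in aLP, by a difference that did not pass. The mean level in detecting cells was 7.34 and 7.94 cycles in ILCP of sorts 2 and 3, against 6.11 and 5.86 cycles in aLP. Single detecting cells ran from 2.2 to 10.5 cycles (median 7.90) in ILCP of sort 2 and from 2.23 to 10.5 (median 8.51) in sort 3. In aLP they ran from 3.3 to 8.70 (median 5.96) in sort 2 and from 2.78 to 8.75 (median 6.07) in sort 3, so the ranges of single cells overlapped widely. The difference of 1.66 ± 0.39 cycles did not pass (limma, adjusted p = 0.0824 over 55 assays, of which 0 passed and 10 had an unadjusted p under 0.05). It passed with the sort as a block (adjusted p = 0.0017), with a limit of 26 (0.0334) and scaled to the cell median (0.0263). The other 16 alternatives did not pass. With the block and with median scaling, the SE (0.382 and 0.446 cycles) was the same for Tcf7, Tox and Sox4. Those 2 p-values therefore rest on a spread pooled over assays, not on that of Tcf7 alone. Scaled to Actb, Gapdh and Hprt, the difference was 1.05 cycles (limma, adjusted p = 0.841).

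**Figure D1:**
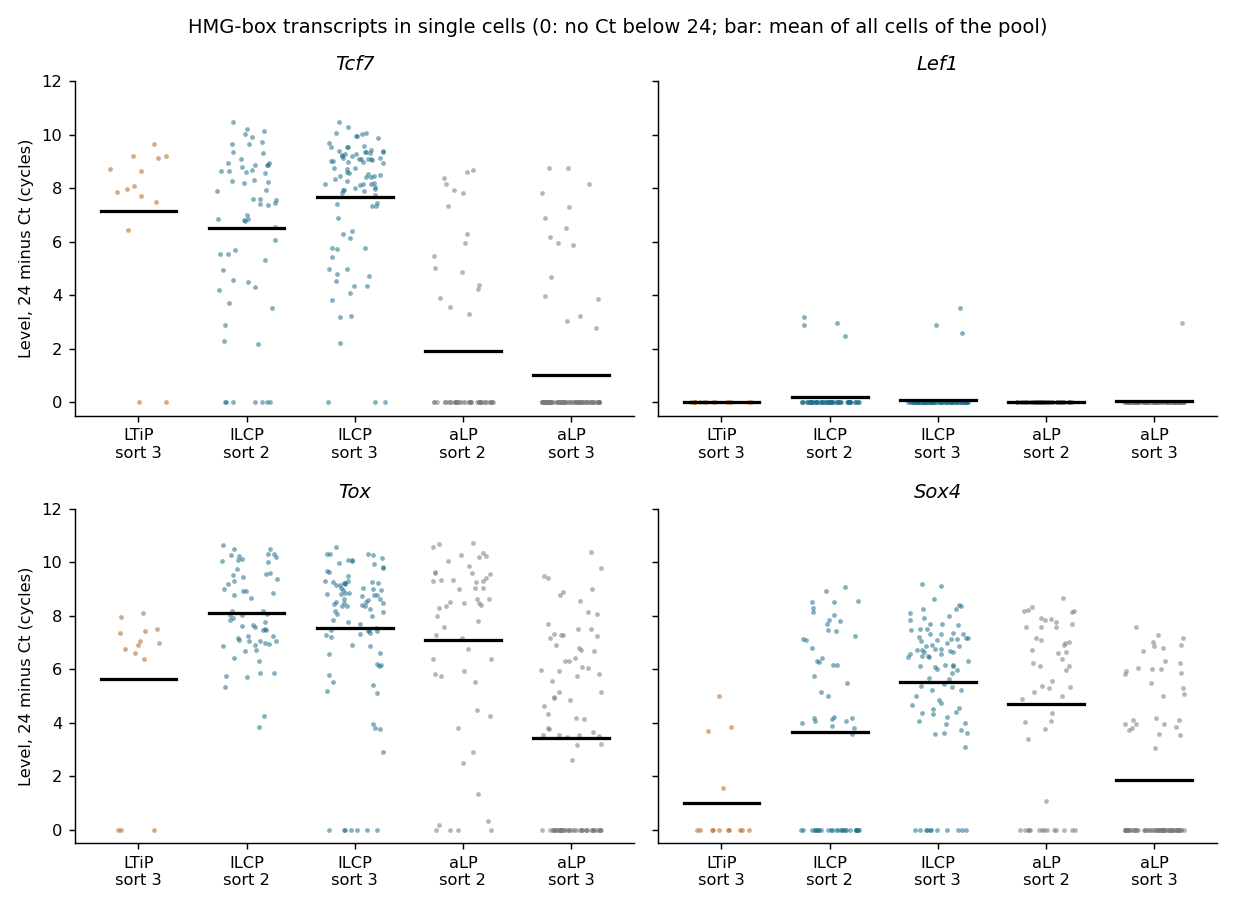
Level (24 minus Ct, in cycles) of each transcript in single cells of the 5 pools, with 0 for cells without a Ct below 24 and a bar at the mean of all cells of the pool. Tcf7 sits high in LTiP and ILCP and at 0 in most aLP cells, while Lef1 is at 0 in nearly every cell.

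The Tcf7 difference was also present in a narrower window of assay number and within ranges of cell numbers. Among cells with 30 to 45 assays detected, a window picked with the values in view, the Tcf7 share was 88.9% in sort 2 and 97.1% in sort 3 for ILCP, with 16 of 39 and 14 of 38 cells for aLP. The window narrowed but did not remove the gap in assays per cell, with means of 39.9 and 38.8 in ILCP and 37.3 and 33.3 in aLP. The level difference there was 4.63 ± 0.46 cycles (limma, adjusted p = 0.00822). Within sort 2, the 10 ILCP cells that shared the number range of the aLP cells had a mean level 3.99 cycles above them. Within the 3 ranges of sort 3 the differences were 7.15, 6.25 and 6.68 cycles.

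Lef1 was near the limit of detection in every group. No LTiP cell had it (0 of 14, exact 95% interval 0 to 23.2%). Among ILCP it was seen in 4 of 62 (6.45%) and 3 of 90 (3.33%), and among aLP in 0 of 54 (exact 95% interval 0 to 6.60%) and 1 of 92 (1.09%). The ILCP pools were slightly above the aLP pools, by a handful of cells. The difference in share between ILCP and aLP was 4.35 ± 2.25 points and did not pass (limma, adjusted p = 0.291). Lef1 was tested only because ILCP of sort 2 reached the filter of 5% of a pool's cells. The assay gave 12 Ct values in all, none earlier than 20.5. All 8 cells that detected Lef1 also detected Tcf7 and Tox.

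Tox was broadly detected, and least in aLP cells of sort 3. ILCP had it in 62 of 62 (100%) and 83 of 90 (92.2%) cells by sort, and aLP in 50 of 54 (92.6%) and 52 of 92 (56.5%). The mean level was 8.10 and 7.54 cycles in the ILCP pools and 7.08 and 3.45 cycles in the aLP pools. The aLP pool of sort 2 lay close under the ILCP pools and that of sort 3 far below, so the spread between the aLP pools was larger than the gap to ILCP. The level difference of 2.55 ± 1.34 cycles (limma, adjusted p = 0.295) and the share difference of 21.6 ± 15.3 points (adjusted p = 0.405) did not pass. Without the aLP pool of sort 2 the level difference was 4.37 cycles, and without that of sort 3 it was 0.74 cycles. Each of these rests on 1 aLP pool, so only the effect size is given. Among cells with 30 to 45 assays the Tox share was 100% and 91.2% in ILCP and 97.4% and 89.5% in aLP. The Tox level difference in that window was 0.40 cycles (limma, adjusted p = 0.844), with -0.41 cycles in sort 2 and 1.21 cycles in sort 3.

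The Sox4 difference had opposite signs in the 2 sorts. ILCP had 36 of 62 (58.1%) and 79 of 90 (87.8%) detecting cells in sorts 2 and 3, and aLP had 40 of 54 (74.1%) and 32 of 92 (34.8%). The mean level was 3.67 and 5.54 cycles in the ILCP pools and 4.72 and 1.86 cycles in the aLP pools. ILCP was thus below aLP in sort 2 and above it in sort 3, and the groups overlapped. The level difference was 1.31 ± 1.25 cycles (limma, adjusted p = 0.505) and the share difference 18.5 ± 20.3 points (adjusted p = 0.560). Both turned negative in cells with 30 to 45 assays (-0.18 cycles and -3.80 points) and without aLP of sort 3 (-0.12 cycles and -1.15 points). In the number range of sort 2 where Tbp gave no Ct, the 10 ILCP cells were below the 54 aLP cells for Sox4 (difference -2.2 cycles), and in the 3 ranges of sort 3 ILCP was above aLP by 3.6, 3.76 and 3.65 cycles. The part of the sort, the number range and the assays per cell in the Sox4 and Tox values was not tested.

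**Figure D2:**
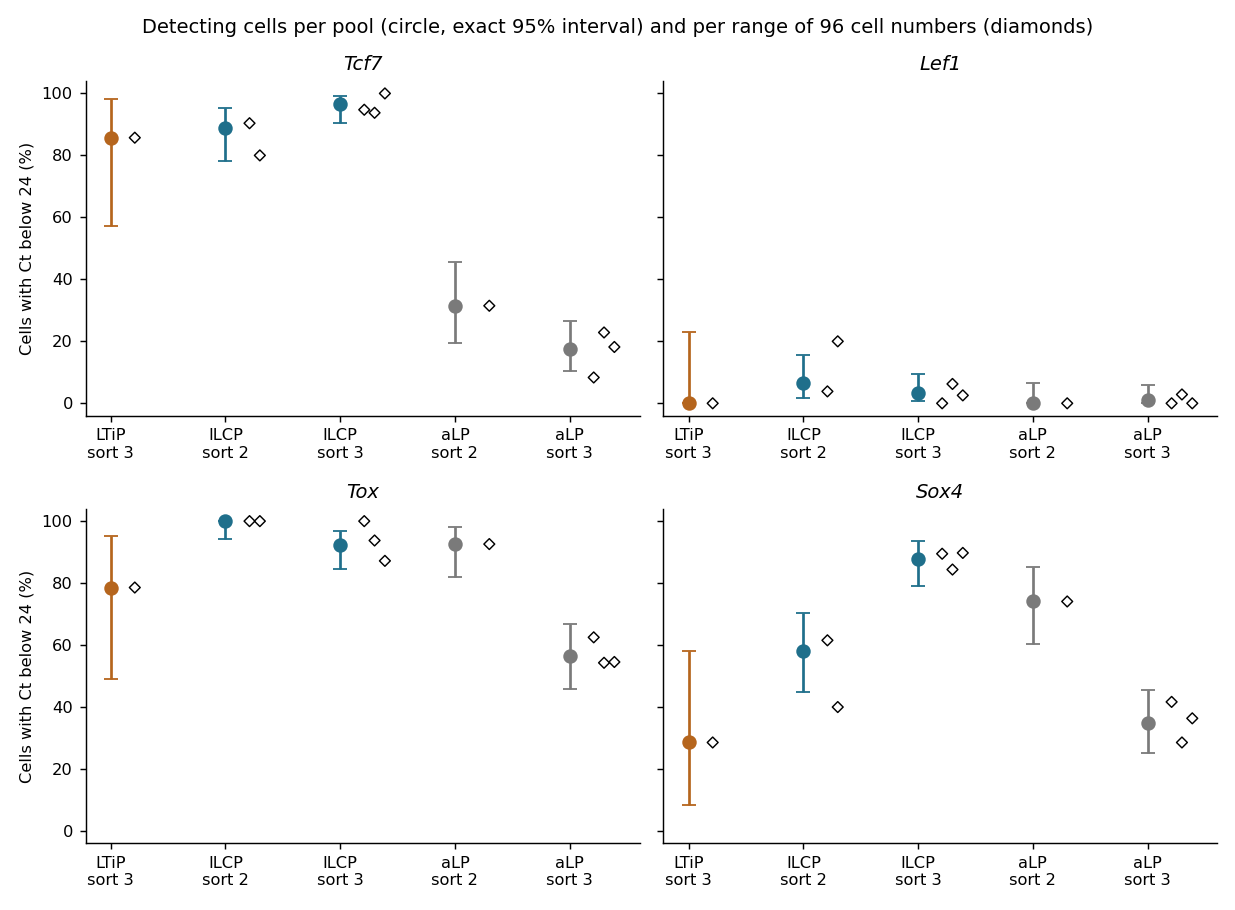
Percent of cells with a Ct below 24 per pool (circle, exact 95% interval) and per range of 96 cell numbers within the pool (diamonds). The Tcf7 shares of ILCP and aLP do not overlap, while the Sox4 share of aLP in sort 2 lies above that of ILCP.

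**Figure D3:**
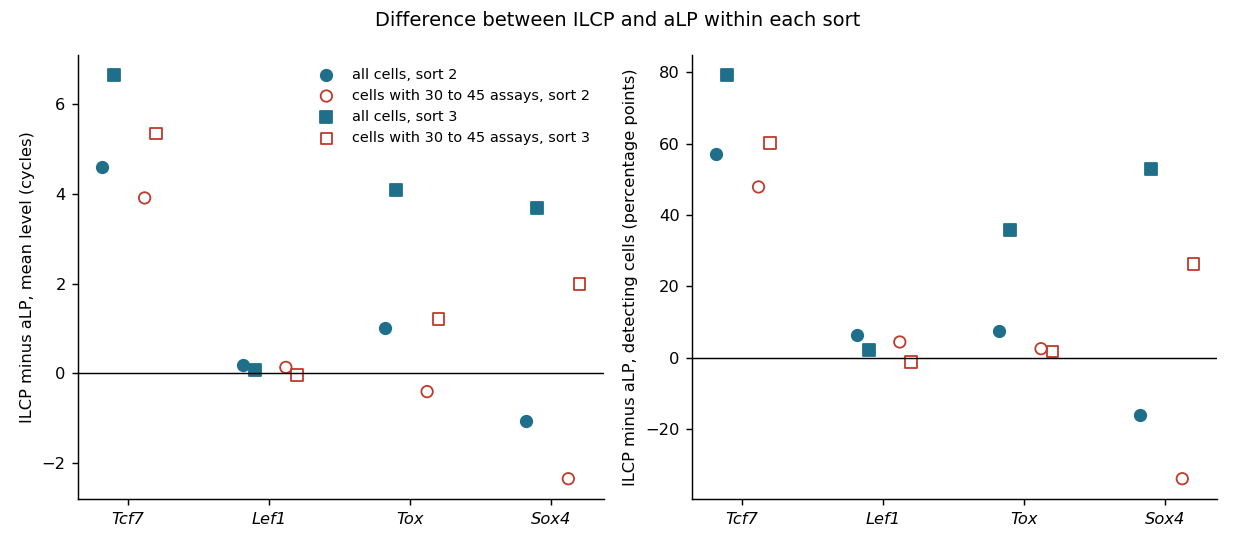
ILCP minus aLP within each sort, as mean level in cycles (left) and as percentage points of detecting cells (right), for all cells (filled) and for cells with 30 to 45 assays detected (open). Tcf7 lies above 0 in every case, and Sox4 lies below 0 in sort 2 and above 0 in sort 3.

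Most LTiP cells held Tcf7 and few held Sox4. Tcf7 was detected in 12 of 14 (85.7%) LTiP cells, Tox in 11 (78.6%) and Sox4 in 4 (28.6%), with mean levels of 7.15, 5.65 and 1.0 cycles. Over detecting cells only, the LTiP means were 8.34, 7.19 and 3.52 cycles, the last from 4 cells. The same means in sort 3 were 7.94, 8.18 and 6.31 cycles in ILCP, and 5.86, 6.10 and 5.35 cycles in aLP. In sort 3 the LTiP share of Tcf7 was 68.3 points above aLP (95% interval 41.1 to 80.4) and differed from ILCP by -11 points (-36.7 to 0.954). For Sox4 the difference of LTiP from ILCP was -59.2 points (-76.9 to -31.8) and from aLP -6.21 points (-25.9 to 21.4). In cells with 30 to 45 assays the difference from aLP was -30.5 points (-54.2 to 3.67). For Tox it was -13.7 points from ILCP (-40.1 to 2.07) and 22.0 points from aLP (-5.84 to 39.2). The Sox4 interval against ILCP and the Tcf7 interval against aLP leave out 0 and the others named here include it. These are Newcombe intervals over cells of single pools, which cover counting error only. A limma fit over all 5 pools assumes that the lone LTiP pool varies like the others. Only its effect sizes are therefore given. There the Tcf7 level differed by 5.67 ± 0.70 cycles between LTiP and aLP, and the Sox4 level by -3.60 ± 1.53 cycles between LTiP and ILCP. In detecting cells Sox4 in LTiP differed by -2.79 ± 0.53 cycles from ILCP and by -2.34 ± 0.53 cycles from aLP. Those values rest on 4 LTiP cells.

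Single ILCP cells mostly held Tcf7, Tox and Sox4 together. All 3 occurred in 3 of 14 LTiP cells. ILCP had 33 of 62 (53.2%) and 73 of 90 (81.1%) such cells, and aLP 13 of 54 (24.1%) and 10 of 92 (10.9%). Tcf7 with Tox but without Sox4 was the most frequent combination in LTiP, with 8 of 14 cells (57.1%). Cells with none of the 3 numbered 2 in LTiP, 0 and 1 in ILCP, and 2 and 34 in aLP by sort.

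**Figure D4:**
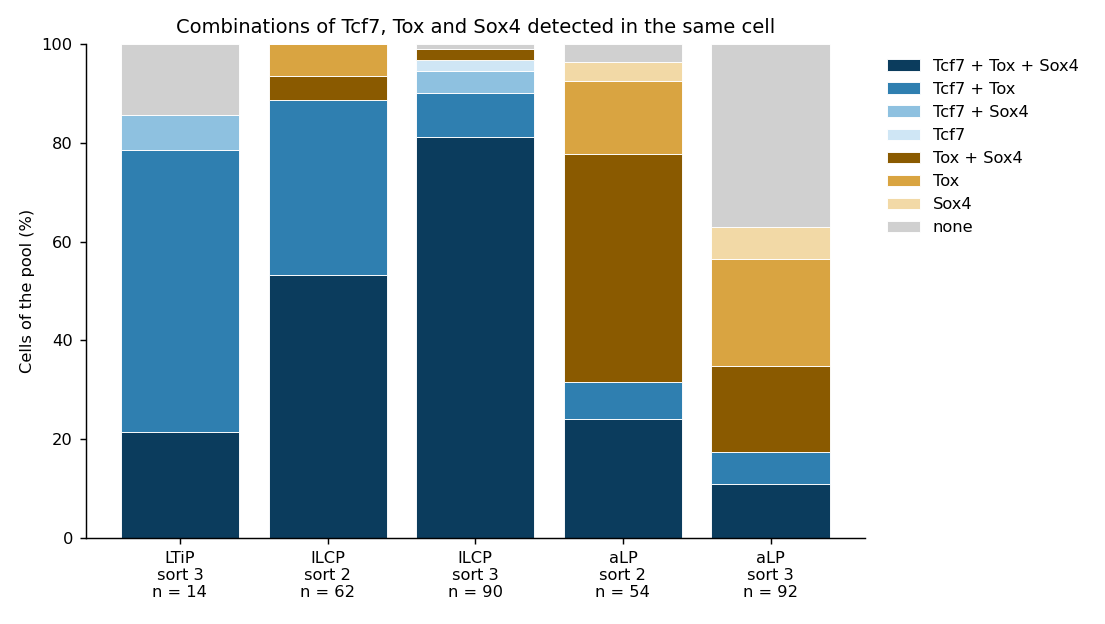
Percent of the cells of each pool that detected each combination of Tcf7, Tox and Sox4. The combination of all 3 is the largest segment in both ILCP pools, and 34 of 92 aLP cells of sort 3 detected none.

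In aLP cells Tcf7 was seen only where Tox was seen. Tox was detected in 17 of 17 and 16 of 16 Tcf7-detecting aLP cells of sorts 2 and 3, against 33 of 37 (89.2%) and 36 of 76 (47.4%) of those without Tcf7. The Tcf7-detecting cells also detected more other assays, with medians of 36 and 31.5 against 31 and 26. Over cells, the Spearman correlation of Tcf7 with Tox was 0.47 and 0.46 for ILCP (n = 62 and 90) and 0.40 and 0.59 for aLP (n = 54 and 92). The same for Tox with Sox4 was 0.51 and 0.38 (ILCP), then 0.72 and 0.55 (aLP). For Tcf7 with Sox4 it was 0.54 and 0.21 (ILCP), then 0.24 and 0.32 (aLP). These values include the cells set to 0. Over cells that detected both, Tcf7 with Tox gave 0.53 and 0.36 (ILCP), then -0.27 and 0.42 (aLP), and Tcf7 with Sox4 gave 0.50 and 0.066 (ILCP), then -0.18 and 0.30 (aLP), so that in aLP of sort 2 the sign turned. The cells of a pool share a sort and pooled livers. In aLP the members also followed the number of other assays detected (Spearman 0.43 and 0.43 for Tcf7, 0.62 and 0.70 for Tox, 0.64 and 0.55 for Sox4). The same values in ILCP were lower, with 0.22 and 0.31 for Tcf7, 0.19 and 0.22 for Tox, and 0.040 and 0.14 for Sox4. With the amount of Actb, Gapdh and Hprt, ILCP gave 0.15 and 0.028 for Tcf7, 0.45 and 0.060 for Tox, and 0.34 and 0.22 for Sox4. These correlations are descriptions.

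**Figure D5:**
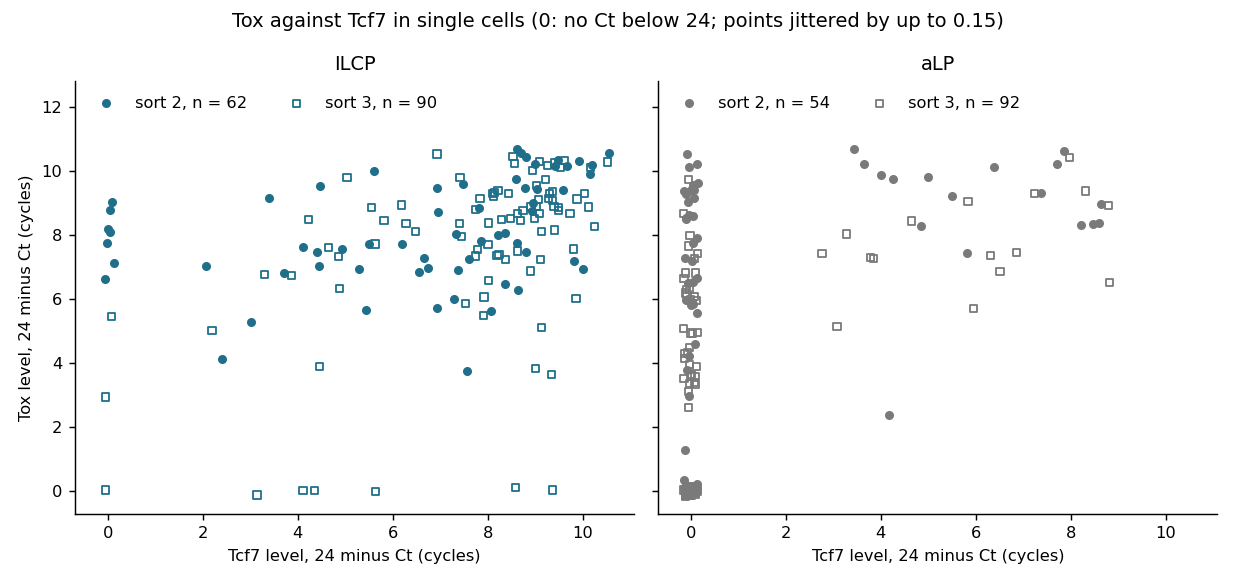
Tox level against Tcf7 level (24 minus Ct, in cycles) in single ILCP (left) and aLP (right) cells of both sorts, with 0 for cells without a Ct below 24. No aLP cell with Tcf7 lies at 0 on the Tox axis.

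The assay whose level over ILCP cells was most like that of Tcf7 was Zbtb16, the PLZF gene, with a mean Spearman correlation of 0.747 over both pools, followed by Tox (0.463) and Cd27 (0.454), a TNF-family receptor. The median over the 56 assays compared was 0.086. For Tox the closest were Runx3 (0.593), a Runt-domain factor, Zbtb16 (0.548) and the survival gene Bcl2 (0.510). For Sox4 the integrin gene Itga4 (0.658) and Zbtb16 (0.463) were among the closest. After scaling to Actb, Gapdh and Hprt, the ILCP values for Tcf7 were 0.739 (Zbtb16), 0.505 (Tox) and 0.585 (Cd27). Those for Tox were 0.541 (Runx3), 0.525 (Zbtb16) and 0.413 (Bcl2), and those for Sox4 0.547 (Itga4) and 0.371 (Zbtb16). Over aLP cells Tox was closest to Nfil3 (0.703), a factor of early ILC development, and to Sox4 (0.637), among 37 assays with a median of 0.276. Scaled to Actb, Gapdh and Hprt, these 2 aLP values were 0.546 and 0.529, and Nfil3 was no longer the closest. Tox in aLP also followed the number of other assays detected (0.62 and 0.70 in sorts 2 and 3). Means can hide differences between pools, as for Tox with Bcl2 in ILCP (0.69 and 0.33 in sorts 2 and 3).

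Of 17 genes listed for the early ILC and T cell programme around TCF-1, 3 passed in mean level as higher in ILCP and 0 as lower. The median level difference was 1.21 cycles, beside 0.54 cycles over all 91 assays, of which 5.49% passed as higher and 1.1% as lower. One of the 3 was Zbtb16, whose protein was the gate, so that its difference (7.10 cycles) follows from the sort and is no test. Without it, 2 of 16 passed and the median was 1.19 cycles. The others were Rora, an ILC nuclear receptor gene (4.83 ± 0.31 cycles, limma, adjusted p = 0.00615), and Ets1, an ETS-family factor (3.60 ± 0.38, adjusted p = 0.0138). The lists were chosen with earlier results of these data known, and these 3 genes are themselves part of the 5.49%. The list counts are therefore descriptions and no test. Of 5 tested TCF/LEF partners and Wnt targets, 0 passed in mean level in either direction and the median difference was 0.20 cycles. Tle1, a Groucho co-repressor, had 1.42 ± 0.52 cycles in ILCP and 3.73 ± 0.48 cycles in aLP (SD, n = 2 pools each), which did not pass (limma, adjusted p = 0.0685). Tle3, of the same family, had the opposite sign, with a difference of 1.16 ± 0.45 cycles that did not pass either (adjusted p = 0.191). Among 4 B, myeloid and early lymphoid genes, Irf8, a myeloid and B lineage factor, was lower in ILCP by 2.88 cycles (difference -2.88 ± 0.31, limma, adjusted p = 0.0138). Of 7 LTi genes 0 passed, and of 10 further HMG-box genes 0 were on the panel. All these list results are for the mean level. In the share of detecting cells, where 14.3% of assays passed, Tle1 passed as lower in ILCP (-40.0 ± 4.46 points, limma, adjusted p = 0.0292). Bcl11b passed as higher (33.9 ± 2.24 points, adjusted p = 0.0154). Zbtb16, Rora, Ets1 and Irf8 passed there too, and the other listed genes did not. With the sort as a block, 0 of 91 assays passed in share.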

How the data were processed

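Single cells were assayed on a Biomark HD system after 22 cycles of preamplification, per the labels' protocols. Per the file headers, the authors deposited raw, non-normalized Ct values, and no source used here gives the rule behind a missing Ct. Of 313 deposited cells 312 were used, each with at least 1 of 4 housekeeping assays and 5 assays detected. Pool means of the level, shares of detecting cells, and levels in detecting cells were compared with limma 3.58.1 (lmFit and eBayes, R 4.3.3) on 2 ILCP and 2 aLP pools, with group as the only term and Benjamini-Hochberg adjustment at 0.05 over every assay that reached 5% of some pool's cells. Level in detecting cells needed 5 such cells in each pool. The p-values measure the spread between pools, which may be technical, and eBayes moderates that spread over assays. For the level in detecting cells, the fits with the block and with median scaling gave Tcf7, Tox and Sox4 the same SE. Those p-values rest on a spread pooled over assays, not on that of each gene. Shares carry exact Clopper-Pearson 95% intervals and differences of LTiP Newcombe intervals. The script was tested on simulated data.

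The 4 genes and the gene lists were chosen with earlier results of these data known. Named besides the 4 were the called and up to 3 largest differences of each list, and the 3 assays with the highest mean correlation over both pools. An assay that this rule names is not reported here. Alternatives varied the detection limit, scaling, filters, averaging, block and pools. Figures used Python 3.11.15, pandas 2.3.3 and matplotlib 3.10.9.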

Additional observations from a re-analysis of the deposited data

Results flagged for a closer look

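Sox4 differed between ILCP and aLP in opposite directions in the 2 sorts. The mean level difference was -1.05 cycles in sort 2 and 3.7 cycles in sort 3, and the share difference was -16.0 points in sort 2 and 53 points in sort 3. Each value compares 1 ILCP pool with 1 aLP pool, and the difference between the sorts was not tested. Late Ct values, at or above 24 and outside the measurement used above, were found for Lef1 in 4 ILCP and 0 aLP cells, and for Tox in 3 ILCP cells and 1 aLP cell. Sox4 had 1 in ILCP and 3 in aLP cells, and Tcf7 had 1 in an LTiP cell.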

How the results depend on the processing

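Over 308 alternatives for 26 results, 5 turned the direction, 6 newly passed and 8 no longer passed. In 14, a count or untested value moved beyond a set limit, and the others did none of these. That limit was a fixed fold range for counts, the Newcombe interval for LTiP shares, and the SD of both pools for correlations. With the sort as a replicate block, the Tcf7 level difference was 5.62 cycles (limma, adjusted p = 0.0611) and the share difference 68.3 points (0.0966). The level in detecting cells passed with the block for Tcf7 (1.66 cycles, 0.0017) and Tox (1.26 cycles, 0.0186). The block fit gave both the same SE (0.382 cycles), a spread pooled over assays. Without the block the level in detecting cells passed for neither (limma, adjusted p = 0.0824 for Tcf7 and 0.239 for Tox). The number does not pair the pools by any label, and the deviations of same-sort pools had a correlation of -0.047 over 91 assays. Leaving out 1 pool at a time gave 5.04 to 6.21 cycles for the Tcf7 level, 61.2 to 75.3 points for its share (passing in none), 0.74 to 4.37 cycles for the Tox level, -0.12 to 2.74 cycles for the Sox4 level (adjusted p = 0.0417 without aLP of sort 2), -1.15 to 38.1 points for the Sox4 share and -0.059 to 0.96 cycles for Sox4 in detecting cells. A lone pool was assumed to vary like the other group. In cells with 30 to 45 assays, chosen after seeing the data, Sox4 gave -0.18 cycles and -3.80 points, its LTiP minus aLP share -30.5 points, and the mean correlations were 0.446 (Tcf7 with Tox, ILCP), 0.156 (Tcf7 with Sox4, aLP) and 0.490 (Tox with Sox4, aLP). Housekeeping scaling gave 0.505 for Tcf7 with Tox in ILCP. The Tcf7 level in detecting cells passed with a limit of 26 (1.66 cycles, adjusted p = 0.0334) and scaled to the cell median (1.51 cycles, 0.0263). Scaled to Actb, Gapdh and Hprt, that level did not pass for Tcf7 (1.05 cycles, limma, adjusted p = 0.841) or Tox (0.75 cycles, 0.938). The 6 assays called became 12 at a limit of 26, 11 at 28, 16 with any Ct, 11 with a 20% filter, 16 with linear averaging, 2 with the replicate block, and 0 to 20 with a pool left out. Without ILCP of sort 2 or sort 3, limma called 0, with 19 and 23 assays at an unadjusted p under 0.05.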
